A study of Mus musculus with 6 samples.

Results

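Cxcl12, Cxcl14, Cxcr4 and Ackr3 encode a pair of chemokine ligands and a pair of chemokine receptors, and 9 of the 45281 probes on each array carried one of these symbols, which are 4 of 19057 symbols in the annotation used here. Cxcl12 had 5 probes, Cxcl14 had 2, and Cxcr4 and Ackr3 had 1 each. The genes were chosen by the lower signals of several Cxcl12 probes and of Cxcl14 in the mutant on these same arrays, so their differences between the genotypes are given as a description, without p-values, and counts of their calls support nothing. The tissue was dissected by laser from sections of mouse embryos at embryonic day 9.5, when the lens placode, the ectoderm that will form the lens, thickens over the optic vesicle. The mutant sample (KO) is labelled surface ectoderm of CBP/p300-/- embryos, and the wild-type sample (WT) is labelled lens placode, all from a mixed FVB and 129 background. CBP and p300 are related lysine acetyltransferases that act as coactivators of transcription. In the study such mutants are conditional, with floxed alleles deleted by Cre in the presumptive lens ectoderm and not in the whole embryo. Its methods name Pax6-Cre for the embryos of its arrays and put them a day later than the labels do. The labels name no Cre line, and whether both describe the same embryos was not settled.

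By the labels, each genotype was a pool of RNA from 3 embryos that was amplified 3 times, for 3 arrays, which makes the arrays of a genotype technical replicates of a pool. The study instead calls its sets biological replicates, and this conflict was not settled. The labels are followed here, and by them errors and p-values measure the spread between amplifications, not between embryos. Dissected tissue differed together with genotype and the effects of these cannot be told apart. Raw median intensities were 90.9 to 95.5 on the KO arrays and 85.6 to 141 on the WT arrays, and WT replicate 1 had both the highest median and the fewest probes above background. Between 14759 and 17195 probes were above background on the KO arrays and between 12212 and 15325 on the WT arrays, at a detection p-value under 0.01 against the negative control beads of the array. The tested probes of the targeted genes read 0.19 and 0.11 (KO minus WT, log2) for Crebbp and 0.18 and 2.60 for Ep300. With limma adjusted p = 0.910, 0.947, 0.963 and 0.0738, none passed the test, and all 4 differences were positive. The Ep300 probe at 2.60 was above background on 3 KO arrays and 0 WT arrays, so its size rests partly on background readings. Their probes too dim to be tested read -0.34 for Crebbp and 0.09 and -0.74 for Ep300. Where these probes lie relative to the deleted exons is not given in the sources used here, and the deletion is therefore not checked by them.

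Chemokines are small secreted proteins that are held on heparan sulfate and guide cells that carry their receptors. Cxcl12 binds Cxcr4, a receptor that signals through inhibitory G proteins, and also Ackr3, an atypical receptor that recruits arrestin and removes the ligand by uptake. In the embryo Cxcl12 and Cxcr4 guide germ cells, neurons, neural crest derivatives and growing vessels. Cxcl14 is a chemokine of epithelia whose signalling receptor is less well established.

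The promoters of Cxcl12 and of its receptor Cxcr4 are shown because the ligand gave a clear signal and the receptor was above background on a single array. The sequences are the 250 bases before the transcription start used by RefSeq (GRCm38.p6), chr6:117168285-117168534 on the plus strand for Cxcl12 and chr1:128592300-128592549 on the minus strand for Cxcr4. Capitals mark GC boxes (GGGCGG on either strand), the half-site of the cyclic AMP response element (TGACG on either strand) and TATA boxes (TATAAA on either strand).
Cxcl12: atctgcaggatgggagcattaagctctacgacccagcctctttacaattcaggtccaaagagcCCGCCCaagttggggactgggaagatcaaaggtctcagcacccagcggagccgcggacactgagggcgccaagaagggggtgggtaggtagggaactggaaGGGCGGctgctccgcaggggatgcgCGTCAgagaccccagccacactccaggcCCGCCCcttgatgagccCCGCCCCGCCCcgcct
Cxcr4: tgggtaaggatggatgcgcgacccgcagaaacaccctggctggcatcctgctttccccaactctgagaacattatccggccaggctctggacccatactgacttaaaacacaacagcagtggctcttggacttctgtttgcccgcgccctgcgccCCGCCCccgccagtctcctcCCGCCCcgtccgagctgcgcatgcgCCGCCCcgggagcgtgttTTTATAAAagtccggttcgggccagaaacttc

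The Cxcl12 window held 5 GC boxes, the nearest pair overlapping by a base, and 1 half-site starting 61 bases before the transcription start. It held 0 TATA boxes. The Cxcr4 window held 3 GC boxes and 2 overlapping TATA matches, at 32 and 30 bases before the start, and the Ackr3 window 1 GC box and 1 TATA match. The corresponding Cxcl14 window held 0 matches to any of these 3 motifs. Among 32851 promoter windows of the same length, 32.7% held a GC box, 17.8% the half-site and 12.4% a TATA match. The complete cyclic AMP response element (TGACGTCA), found in 1.55% of windows, was in none of the 4. A match is only a run of letters, and binding was not measured here.

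Cxcl12 was lower in KO by its brightest probe, ILMN_2658908, which was above background on all 6 arrays. Its normalised log2 intensity was 7.93, 8.44 and 9.13 on KO replicates 1 to 3, against 11.29, 11.12 and 10.88 on WT replicates 1 to 3. The groups did not overlap, and the lowest WT array lay 1.76 above the highest KO array. The means were 8.50 ± 0.60 in KO and 11.10 ± 0.21 in WT (SD, n = 3 each), a difference of -2.60 ± 0.38 (SE), so that WT was 6.06-fold brighter. In raw units the same probe read 335, 417 and 641 in KO and 2794, 2261 and 2088 in WT. In such dissected samples, fewer cells that make a transcript and less transcript per cell cannot be told apart.

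The other Cxcl12 probes were dimmer. ILMN_3158250, annotated to the transcript record NM_001012477, read 5.91, 7.72 and 6.83 on the KO arrays, against 9.87, 8.61 and 10.01 on the WT arrays. It was above background on 2 KO arrays and 3 WT arrays, and the groups did not overlap. ILMN_2746295, annotated to NM_021704, read 6.86, 6.27 and 5.41 on the KO arrays, against 8.60, 8.77 and 8.96 on the WT arrays, again without overlap and with KO replicate 3 not above background. ILMN_2737302, annotated to the same record, read 6.58, 5.15 and 5.13 on the KO arrays, against 7.75, 8.24 and 6.41 on the WT arrays. Here the groups overlapped: KO replicate 1, the only KO array above background for this probe, lay above WT replicate 3.

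The 4 measured Cxcl12 probes thus had differences in the same direction. These were -2.60 ± 0.38 for ILMN_2658908, annotated to NM_013655, -2.67 ± 0.60 for ILMN_3158250, -2.60 ± 0.42 for ILMN_2746295 and -1.85 ± 0.63 for ILMN_2737302 (SE). The sizes of the last 3 rest partly on readings that were not above background. The 3 transcript records come from 1 gene and the annotation does not say whether a probe lies in sequence shared by them, so the probes are not separate measures of separate isoforms. The fifth probe, ILMN_3078973, was not above background on any array, with 4.85, 4.77 and 4.77 in KO and 4.76, 4.62 and 5.03 in WT.

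**Figure D1:**
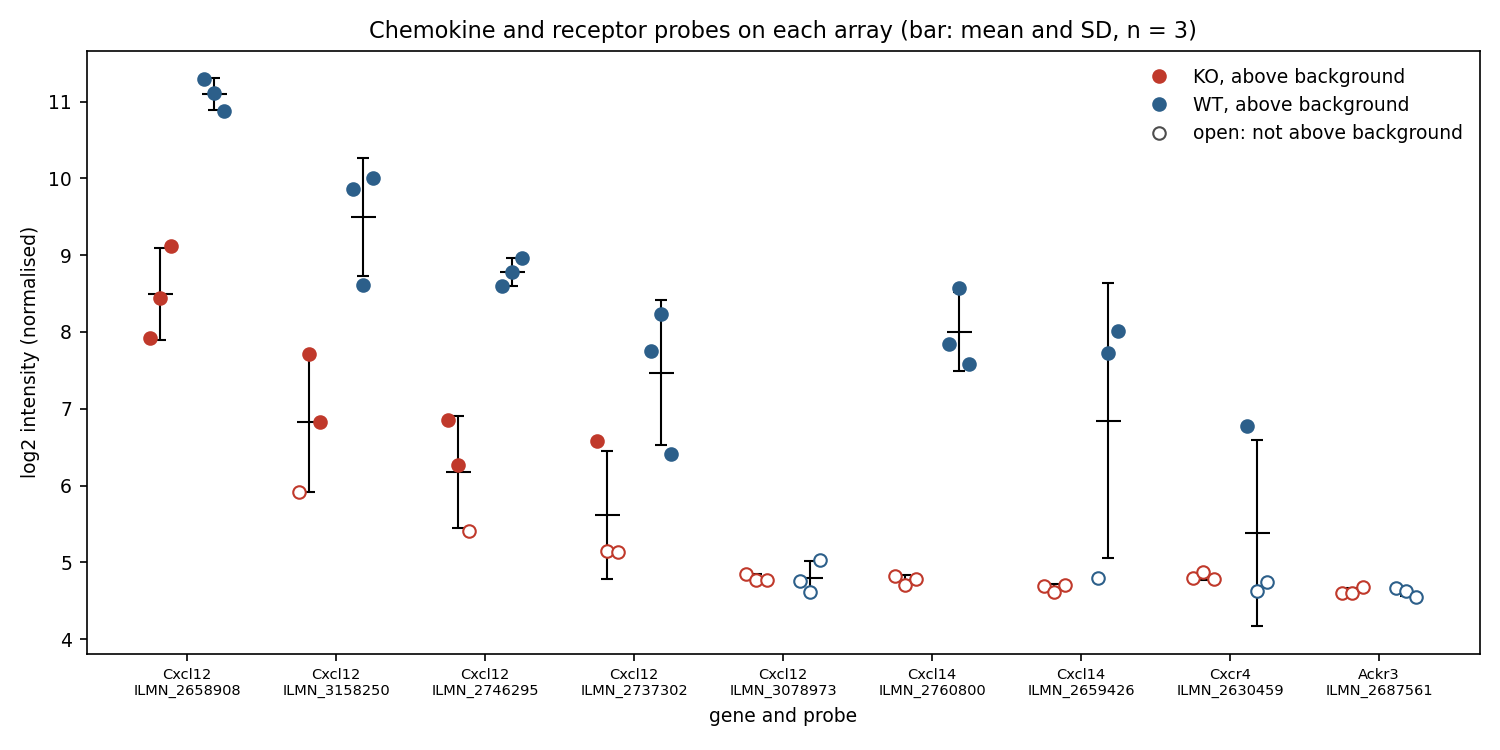
Normalised log2 intensity (vertical axis) of each of the 9 probes (horizontal axis), with 1 point per array, KO left of WT, and the mean with its SD (n = 3); open points were not above background. For ILMN_2658908 the KO arrays lie between 7.93 and 9.13 and the WT arrays between 10.88 and 11.29, while the Cxcr4 and Ackr3 probes lie at the floor on nearly all arrays.

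The probes did not order the amplifications alike. Among the KO arrays, replicate 3 was the brightest for ILMN_2658908 and the dimmest for ILMN_2746295 and ILMN_2737302, and replicate 2 was the brightest for ILMN_3158250. Among the WT arrays, replicate 3 was the dimmest for ILMN_2658908 and ILMN_2737302 and the brightest for the other measured Cxcl12 probes. After each probe was centred on its own mean over the 6 arrays, pairs of Cxcl12 probes differed by a root mean square of 0.68 to 1.41 log2 units. The closest pair was ILMN_2658908 with ILMN_3158250, and the most distant ILMN_3158250 with ILMN_2737302.

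Cxcl14 was above background in WT and not in KO. Its brighter probe, ILMN_2760800, read 4.82, 4.71 and 4.79 on the KO arrays, against 7.85, 8.57 and 7.58 on the WT arrays. All 3 KO readings were background readings and lay far below all 3 WT readings. The means were 4.77 ± 0.06 in KO and 8.001 ± 0.51 in WT (SD, n = 3 each), a fitted difference of -3.23 ± 0.33 (SE). Because KO gave only background, the size has a lower bound under the background correction used here: by the means, Cxcl14 was at least 4.59-fold lower in KO. The bound sets the WT mean against the mean, over the KO arrays, of the dimmest signal above background, without allowance for spread. It depends on the background correction: when none was applied the fitted difference was -1.97, which is smaller than the bound. The other lower bounds given below are formed from group means in the same way.

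The second Cxcl14 probe, ILMN_2659426, read 4.70, 4.61 and 4.70 on the KO arrays, against 4.79, 7.73 and 8.02 on the WT arrays. It was above background on WT replicates 2 and 3 and on no KO array. WT replicate 1 stood apart from the other WT arrays, at the level of KO, whereas the first probe was above background on that array. Taken over all 3 WT arrays the same calculation gave 2.06-fold for this probe. That is not a lower bound, since WT replicate 1 was itself not above background. The study lists Cxcl14 among the genes decreased in its mutant ectoderm, at a stage a day later than the labels give, and that list may rest on these arrays.

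The receptors gave little signal. The Cxcr4 probe, ILMN_2630459, read 4.80, 4.88 and 4.78 on the KO arrays, against 6.78, 4.62 and 4.74 on the WT arrays. Only WT replicate 1 was above background, with a raw intensity of 229 and a detection p-value of 0.00855, and the other WT arrays lay below all KO arrays. The Ackr3 probe, ILMN_2687561, read 4.59, 4.60 and 4.68 in KO and 4.66, 4.63 and 4.55 in WT. It was above background on no array, and its detection p-values were 0.787 to 0.994. No fold is given for either receptor, and at this brightness a difference in the receptors between the pools was not detectable with a single probe for each gene.

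Of the 9 probes, 5 were above background on all 3 arrays of at least 1 genotype and entered the fit across 12697 probes: 4 of Cxcl12 and 1 of Cxcl14. By limma, with Benjamini-Hochberg adjustment over all tested probes and a log2 difference of at least 1 in size, 2 of these 5 were called lower in KO, against 0.425% of all tested probes, and 0 were called higher, against 0.417%. Over all tested probes 54 were called lower and 53 higher, a split that became 29 and 63 with median scaling and 68 and 102 with the table the authors processed. The called probes were ILMN_2658908 of Cxcl12 and ILMN_2760800 of Cxcl14. For 4 of the 5 every KO array lay below every WT array, as for 10.2% of all tested probes. These counts come from the contrast by which the genes were chosen and from the probes bright enough to be tested, and nothing is read from them. All 5 tested probes had negative differences, with a median of -2.60, against a median of 0.05 over all tested probes, of which 47.0% were negative. The direction and the median follow from the choice of the genes as well. All of these probes but ILMN_2658908 passed the filter through WT alone, where they were brighter, so nothing is read from these values either.

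In the ordering of all tested probes from the most negative difference, the Cxcl14 probe stood at place 25 and the Cxcl12 probes at places 74, 86, 87 and 285. These places follow from the same choice and are a description only. The call of Cxcl12 was kept in 1 of 14 other settings and that of Cxcl14 in 5 of 14. With any 1 array left out, limma called 0 probes of the whole array in either direction, while 675 to 1222 probes were lower and 1033 to 1188 higher at an unadjusted p under 0.05.

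**Figure D2:**
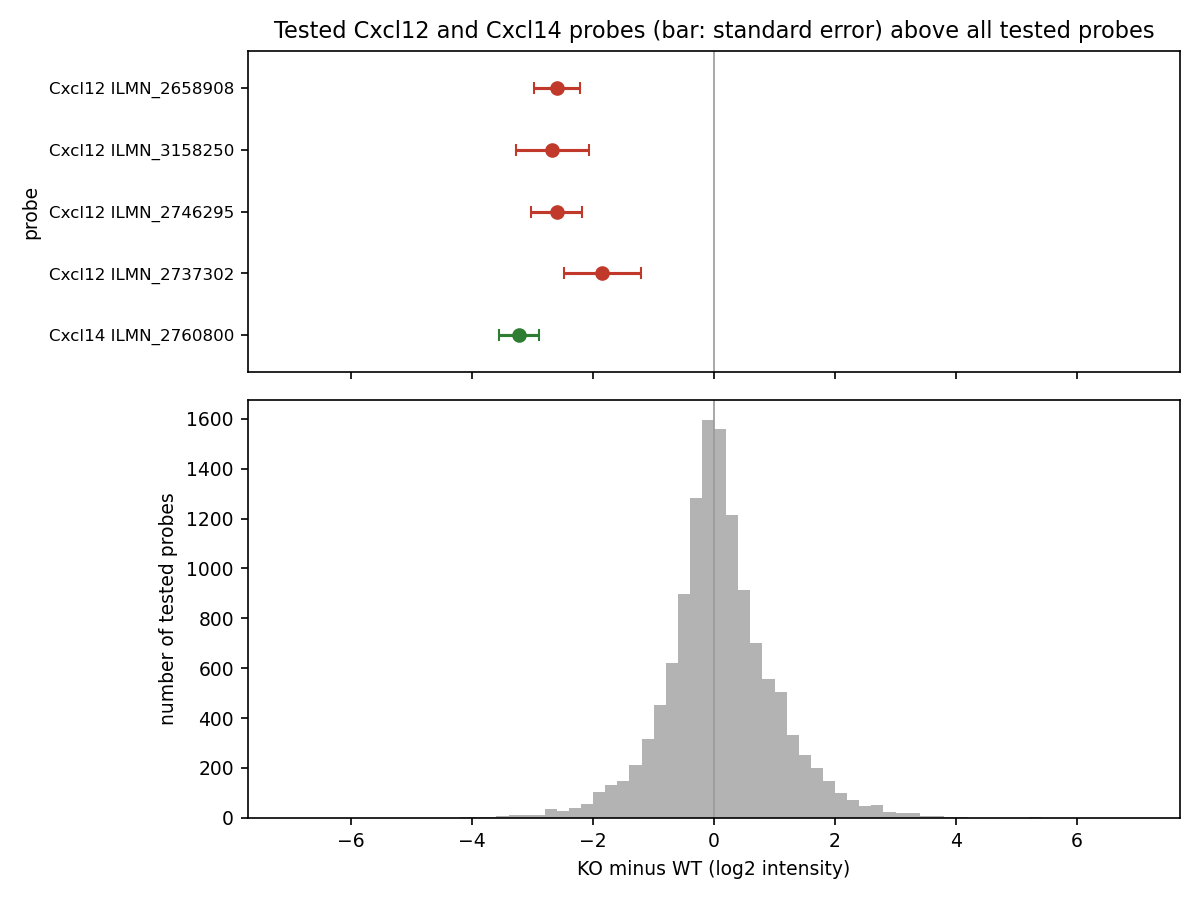
Upper panel: KO minus WT difference in log2 intensity (horizontal axis) of the 5 tested probes, with its standard error. Lower panel: number of all 12697 tested probes at each difference; the Cxcl12 and Cxcl14 probes lie between -3.23 and -1.85, in the left tail.

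For the tested probes, the error within an array was smaller than the spread between amplifications. Each probe was read from 29 to 56 beads on an array, and the standard error over beads was 1.83% to 7.04% of the intensity. For ILMN_2658908 the bead error averaged 0.05 on the log2 scale of the raw intensity, against an SD between arrays of 0.48 in KO and 0.22 in WT. The spread between arrays was thus 9.70 times the bead error in KO and 4.43 times in WT for this probe. For ILMN_3158250 the SD between arrays was 0.52 in KO and 0.83 in WT, against a bead error of 0.04. For the Cxcl14 probe ILMN_2760800 the SD was 0.10 in KO, where it measures background, and 0.45 in WT, against a bead error of 0.05. Raw values are not normalised between arrays, so the higher background of WT replicate 1 is part of the WT spread.

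**Figure D3:**
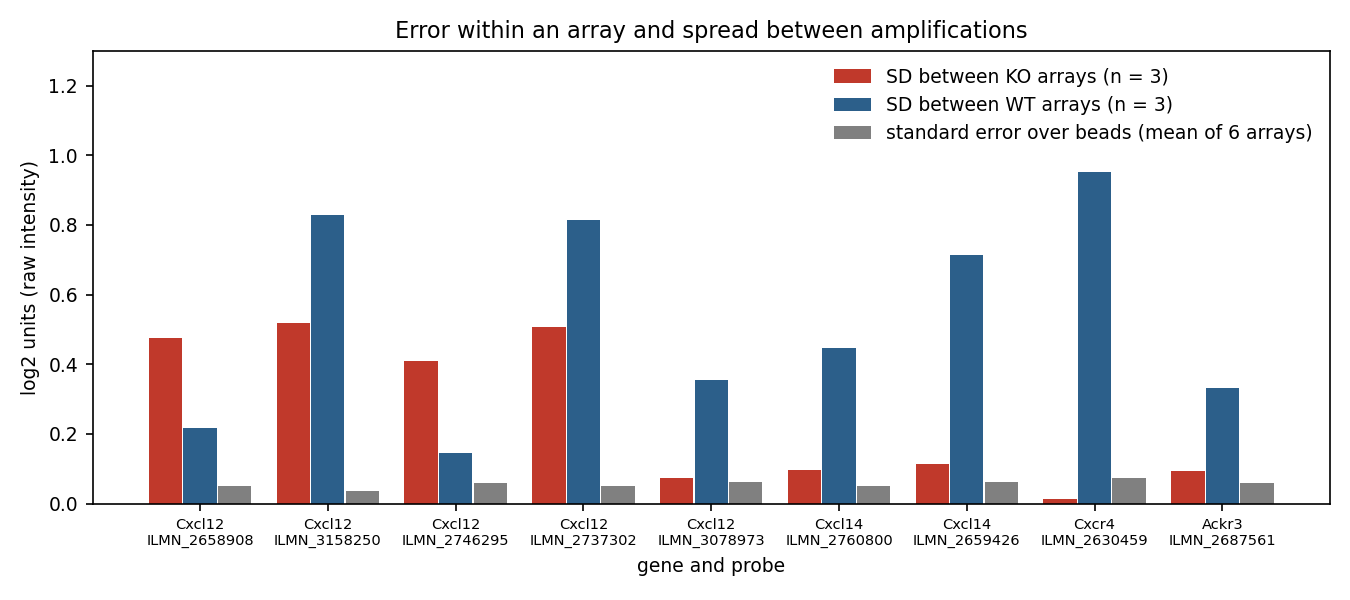
Standard deviation between the 3 KO and the 3 WT arrays and mean standard error over beads, in log2 units of the raw intensity (vertical axis), for each of the 9 probes (horizontal axis). For ILMN_2658908 the bars stand at 0.48 (KO), 0.22 (WT) and 0.05 (beads).

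Genes with the most similar profile over the 6 arrays were then listed, as a description, by the root mean square difference of centred log2 values between the brightest tested probe of each gene and those of 7140 other named genes. Arrays of 1 genotype share a pool, per the labels, so the 6 points of a profile are not independent. This measure includes the KO minus WT difference by which Cxcl12 and Cxcl14 were chosen. Genes with a difference of similar size therefore come out near. A gene with little difference lies far off, so the medians below follow from the choice as well. The profile of Cxcl12 was closest to those of Tnc, the gene of tenascin C, a glycoprotein of the extracellular matrix (0.27), Clrn1, which encodes clarin-1 (0.30), and Lypd6b, of the LY6 family (0.31), with a median of 1.47 over all genes compared. That of Cxcl14 was closest to Pitx3, a homeobox regulator of the lens (0.21), Igfbp5, an insulin-like growth factor binding protein (0.27), and Zbtb41, a zinc finger protein (0.27), with a median of 1.74. Cxcl12 and Cxcl14 differed from each other by 0.55. The other measured Cxcl12 probes lay farther from ILMN_2658908, at 0.68, 0.80 and 0.99, so a near profile is not particular to a gene. Readings at background enter several of these profiles. Pitx3 was above background on no KO array, like Cxcl14, while Clrn1 and Lypd6b were on 1 KO array each, Tnc and Zbtb41 on 2 and Igfbp5 on 3. KO minus WT differences were -2.75 for Tnc, -2.57 for Clrn1 and -2.53 for Lypd6b. They were -3.55 for Pitx3, -3.09 for Igfbp5 and -2.77 for Zbtb41. Nothing beyond a genotype difference of similar size is read from the closeness.

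Other chemokine genes were mostly not measurable. Of 14 other CXC, CX3C and related ligands with a probe, 3 (Cx3cl1, Cxcl1 and Ppbp) were above background on at least 1 array and only Cx3cl1 was tested. Cx3cl1, the membrane-bound chemokine fractalkine, read 4.69, 4.72 and 4.81 on the KO arrays, against 7.95, 6.93 and 6.15 on the WT arrays. KO was not above background on any array, so Cx3cl1 was tested through WT alone. The groups did not overlap, and all KO arrays lay below all WT arrays for 10.2% of all tested probes too. The fitted difference was -2.27 ± 0.48 (SE, limma adjusted p = 0.103), at least 2.31-fold, and did not pass the test, although it was called lower with the deposited processed values. The study lists Cx3cl1 among its decreased genes as well, again at a stage a day later than the labels give, and that list may rest on these arrays.

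Of 21 CC ligands 4 were above background on at least 1 array and 2 were tested, with 0 called. Only 0.425% of all tested probes were called lower and 0.417% higher, so 0 calls here say little. Ccl27a, a chemokine of skin epithelium, read 0.56 ± 0.44 (SE, limma adjusted p = 0.639) by its brighter probe and 0.55 by the other. Ccl25, a chemokine of thymus and gut, read 0.67 ± 0.65 (adjusted p = 0.711). Of 21 other chemokine receptors with a probe, 3 (Cxcr2, Cx3cr1 and Gpr182) were above background on 1 array each and 0 could be tested. The receptors of this family, Cxcr4 and Ackr3 included, therefore gave no testable signal in either pool.

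Genes that hold, bind or cleave Cxcl12 included 0 called genes among 4 tested of 13 with a probe, with a median difference of -0.30. With 0.425% of all tested probes called lower and 0.417% higher, 0 calls in this list say little. Hspg2, which encodes the heparan sulfate proteoglycan perlecan, read -0.81 ± 0.35 and its dimmer probe -1.12 (SE, limma adjusted p = 0.345 and 0.246). Hmgb1, which encodes a nuclear protein that when released forms a complex with Cxcl12, read -0.78 ± 0.37 (adjusted p = 0.395). Mif, which encodes a cytokine that also binds Cxcr4, was bright in both pools, at 13.96 ± 0.12 in KO and 13.79 ± 0.11 in WT (SD, n = 3 each; limma adjusted p = 0.815). Mmp14, a membrane metalloprotease, read 0.88 ± 0.43 (adjusted p = 0.408).

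G proteins, receptor kinases, arrestins and their regulators included 0 called probes of 28 tested, for 17 tested genes of 31 with a probe, with a median of 0.22. Over all tested probes 0.425% were called lower and 0.417% higher, so 0 calls in a list this short say little. Gnb4, a G protein beta subunit, read 6.75, 9.22 and 8.48 on the KO arrays, against 4.79, 5.24 and 4.81 on the WT arrays. WT was not above background on any array, so Gnb4 was tested through KO alone. The groups did not overlap, and all KO arrays lay above all WT arrays for 11.3% of all tested probes too. The difference of 3.21 ± 0.64 (SE, at least 3.96-fold) did not pass the test (limma adjusted p = 0.0905). Gnao1 read 1.29 ± 0.50 (adjusted p = 0.303), Gna11 1.18 ± 0.65 with another probe at -0.45, and Gnai1 0.84 ± 0.58, with adjusted p = 0.472 for Gna11, 0.643 for its other probe and 0.577 for Gnai1. A dimmer probe of Gnaq, another alpha subunit, read 3.26 ± 0.75 (adjusted p = 0.123) and was above background on 3 KO arrays and 1 WT array, while the brightest Gnaq probe read 0.08 ± 0.47 (adjusted p = 0.963). The beta-arrestin gene Arrb1 read 0.71 ± 0.53 (adjusted p = 0.617). Gnai2, an inhibitory alpha subunit through which Cxcr4 signals, read 0.26 ± 0.27 by its brightest probe and -0.52 by a dimmer one (adjusted p = 0.729 and 0.386).

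Effectors of migration downstream of Cxcr4 included 1 called probe of 26 tested, for 16 tested genes of 27 with a probe, with a median of 0.26. Over all tested probes 0.425% were called lower and 0.417% higher. The called probe of this list belongs to Jak2, a cytokine receptor kinase, and read 6.03, 5.77 and 5.60 on the KO arrays, against 8.09, 7.72 and 7.52 on the WT arrays. The KO arrays lay below the WT arrays without overlap, as for 10.2% of all tested probes. The difference was -1.97 ± 0.28 (SE, limma adjusted p = 0.0489), a call that was lost in 13 of 14 other settings. The brightest Jak2 probe read -2.28 ± 0.56 and did not pass (adjusted p = 0.133), and both probes were above background on 2 KO arrays. For the other tested effectors the brightest probe ranged between -1.07 for Pik3r1, a regulatory subunit of PI3 kinase, and 1.65 for Stat3, a transcription factor, with limma adjusted p = 0.281 and 0.419.

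**Figure D4:**
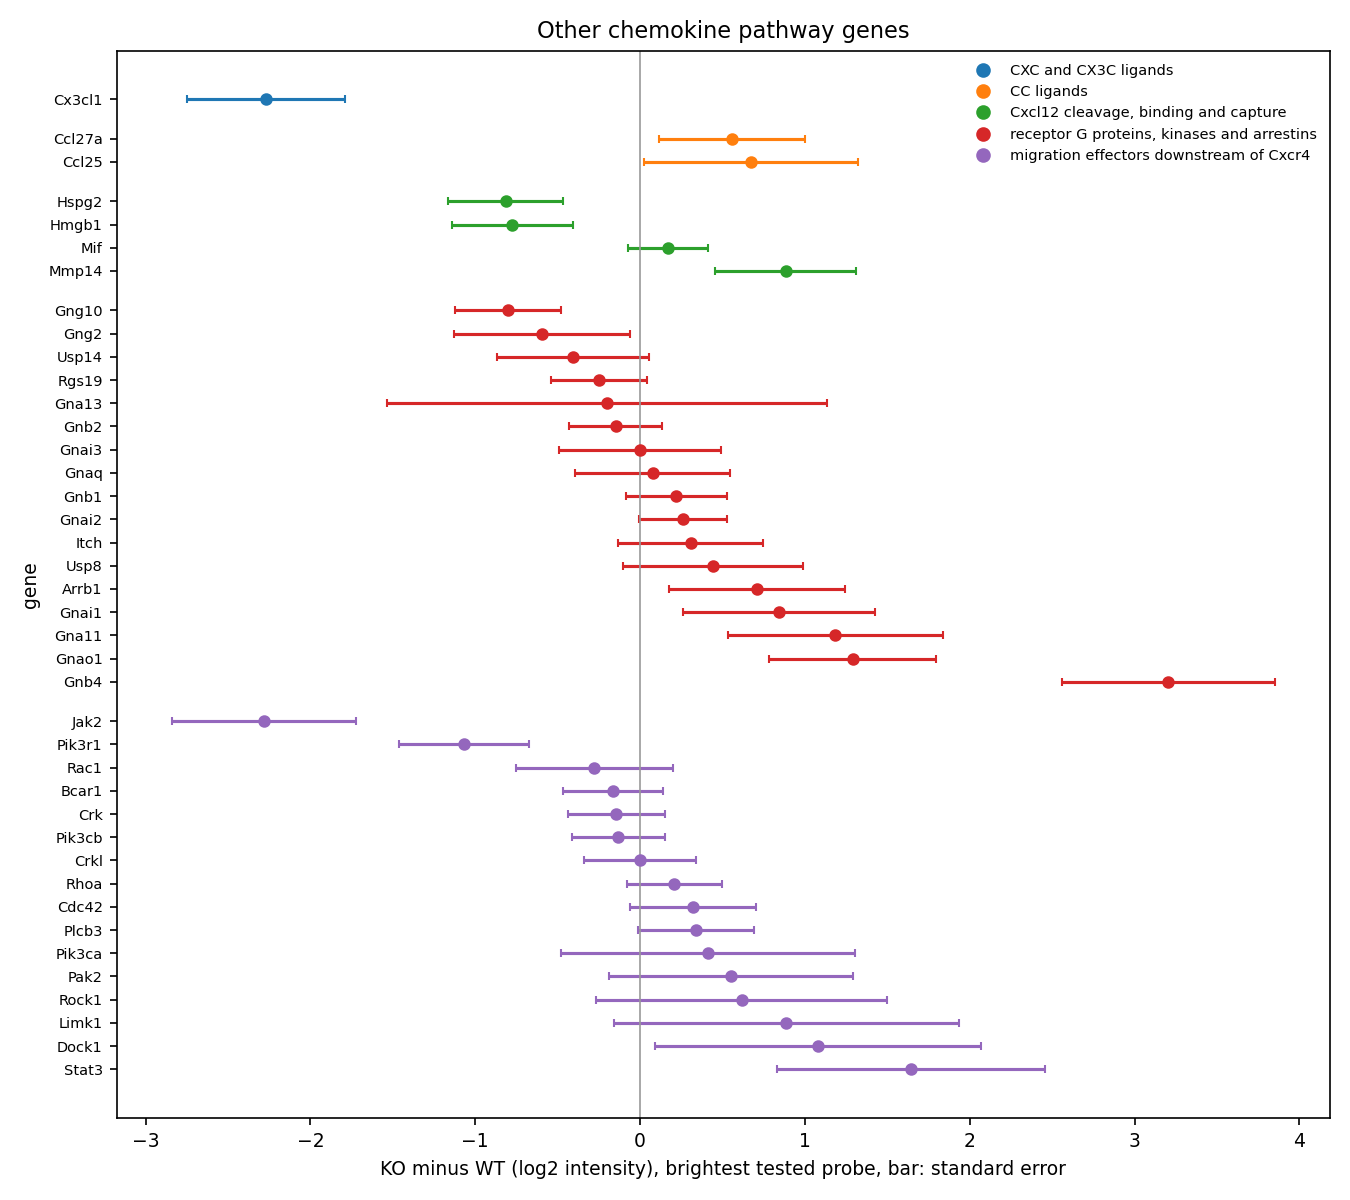
KO minus WT difference in log2 intensity (horizontal axis, bar: standard error) of the brightest tested probe of each of 40 other chemokine pathway genes (vertical axis), coloured by list. Cx3cl1 (-2.27) and Jak2 (-2.28) lie at the left and Gnb4 (3.21) at the right, with the other genes between -1.07 (Pik3r1) and 1.65 (Stat3).

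Markers of the dissected tissue and of its neighbours differed between the pools in the same comparison, and their part in the chemokine differences was not tested. For lens placode genes the intensities summed over 12 genes were 6754 to 9447 in KO and 14015 to 16699 in WT. All 12 were above background on at least 1 array. Of 22 tested probes 3 were called lower, against 0.425% of all tested probes. They were probes of Pitx3 (-3.55), Foxe3 (-2.71) and Mab21l1 (-2.10), with limma adjusted p = 0.0201, 0.0404 and 0.0332. Pitx3 and Foxe3 were above background on no KO array and were at least 5.80-fold and 3.24-fold lower. The brighter Mab21l1 probe read -1.9 and did not pass (adjusted p = 0.057). By the brightest probe 11 genes were lower in KO and 1 higher, with Pax6 at -0.20 and Six3 at 0.15. For surface ectoderm the sums over 16 genes were 16843 to 19174 in KO and 23954 to 25381 in WT, with 15 genes above background on at least 1 array, all but Krt14. Of its 16 tested probes 0 were called lower and 0 higher, against 0.425% and 0.417% of all tested probes. Ectoderm markers were thus present in both pools. Blood genes went the other way, with sums over 9 genes of 13772 to 14456 in KO and 5799 to 7546 in WT, 7 of them above background on at least 1 array, not Gata1 and Epor. By the brightest probe all 5 tested blood genes were higher in KO, by 0.71 to 2.15. Of 6 tested blood probes 0 were called, with limma adjusted p from 0.0779 to 0.248. The sums are carried by the brightest genes of a list and were not tested.

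Cell types known to make or to answer Cxcl12 were also examined. For periocular mesenchyme and neural crest the sums over 19 genes were 3479 to 4203 in KO and 3394 to 5948 in WT, which overlap, and 16 genes were above background on at least 1 array, all but Pdgfrb, Twist1 and Sox10. The members of this list went both ways, with Pdgfra at -2.21 (limma adjusted p = 0.0871), Col1a1 at 2.996 (adjusted p = 0.142) and Alx4 called higher at 4.05 (adjusted p = 0.0489). Of its 15 tested probes 1 was called higher and 0 lower, against 0.417% and 0.425% of all tested probes. Alx4 was above background on 3 KO arrays and 0 WT arrays. It was thus tested through KO alone, and its size rests partly on background readings. For endothelium the sums over 15 genes were 1062 to 1338 in KO and 502 to 694 in WT, and 5 genes were above background on at least 1 array. The only tested gene of this list, Cldn5, which encodes a tight junction protein of endothelium, was above background on 3 KO arrays and 0 WT arrays and read 3.67 ± 0.65, at least 6.43-fold, without passing the test (limma adjusted p = 0.0711). Defining endothelial genes were among the other 10, among them Pecam1, Cdh5, Kdr, Flt1, Tie1 and Emcn. For optic vesicle the sums over 11 genes were 1705 to 2782 in KO and 1081 to 5011 in WT, with 6 above background on at least 1 array and Six6, Vax2, Hes5, Fabp7 and Sox1 on none. The highest WT sum came mostly from Mitf on WT replicate 2 (12.12, against 9.23 and 9.15 on the other WT arrays). Of the 4 tested genes 1 was lower in KO and 3 were higher, with 0 called, against 0.425% of all tested probes called lower and 0.417% higher. Mitf read -0.10, Rax 0.51, Otx2 1.51 and Pax2 1.63. Otx2 was above background on 3 KO arrays and 0 WT arrays. Macrophage genes were near background, with 2 of 11 above it on at least 1 array and sums of 311 to 322 in KO and 328 to 954 in WT, and Csf1r, Adgre1 and Ptprc were above it on none.

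**Figure D5:**
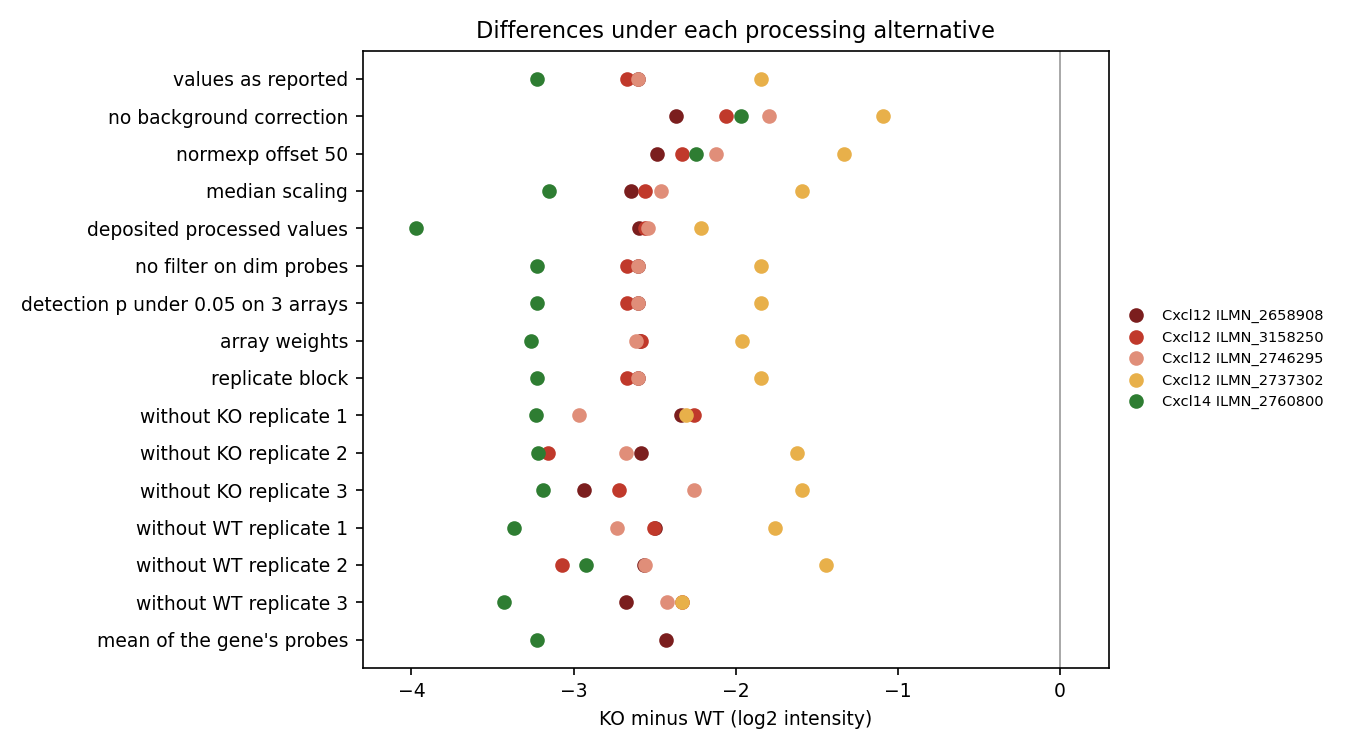
KO minus WT difference in log2 intensity (horizontal axis) of the 5 tested Cxcl12 and Cxcl14 probes, for the values as reported and for each processing alternative (vertical axis). Every point is negative, between -3.97 and -1.09, and the Cxcl14 probe moves most between background corrections.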

How the data were processed

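The authors deposited, for each of 6 Illumina MouseWG-6 arrays, a linear bead intensity, a detection p-value, the number of beads and the standard error over beads for each of 45281 probes, without normalization. A further deposited table holds intensities that the authors had processed in GenomeStudio with cubic spline normalization, and it was used as an alternative. Here the raw intensities were corrected with normexp, fitted from the detection p-values with an offset of 16, converted to log2 and quantile normalized (limma 3.58.1 under R 4.3.3). The 12697 probes whose detection p-value stayed under 0.01 in every array of either genotype were tested with lmFit and eBayes, where the residual degrees of freedom were 4 and the prior degrees 2.15. Benjamini-Hochberg adjustment ran over all of them, and calls needed an adjusted p under 0.05 together with a log2 difference of 1 or more in size. The GenomeStudio test was not run.

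Gene symbols came from the platform annotation, updated by Entrez identifier, with 34885 probes of 1 symbol. A gene was represented by its brightest probe. The 4 genes and the lists (6 of the chemokine pathway, 7 of cell type markers) were chosen with earlier results of these data known. Named were all probes of the 4 genes, the targeted genes, called list members or otherwise up to 4 with the largest differences, the 3 most similar profiles and called or undetected markers. Arrb1, Gnai2, Gnaq, Cldn5, Pik3r1, Stat3, Pdgfra, Col1a1, Cxcl1, Ppbp, Pax6, Six3, Mitf, Otx2, Pax2, Rax and the 3 receptors above background on 1 array were chosen after their values were seen. Summed marker levels are normalised linear intensities of the brightest probe of each gene. Promoter windows came from RefSeq (GRCm38.p6), and all 4 genes matched. Alternatives covered the background correction, normalization, filter, array weights, a replicate block and each array left out. For the differences of Cxcl12 and Cxcl14 a further alternative was the mean of the tested probes of the gene. The dimmer Cxcl14 probe was not tested, so for Cxcl14 this mean repeats the reported value.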

Additional observations from a re-analysis of the deposited data

How the results depend on the processing

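The differences of Cxcl12 and Cxcl14 kept their direction in all alternatives run. The brightest Cxcl12 probe ranged between -2.94 and -2.34 over 15 alternatives and moved by less than the spread between arrays in each. The changes of filter and the replicate block cannot alter a difference of means on the same arrays, and it stayed at -2.60 there. Cxcl14 read -1.97 without background correction, -2.24 with an offset of 50 and -3.97 in the deposited processed table. With 1 array left out it read -3.43 to -2.92. The mean of the tested probes could not differ for Cxcl14 and repeats the reported -3.23. Without background correction the dimmer Cxcl12 probes were nearer to 0 too, with ILMN_2746295 at -1.79, ILMN_3158250 at -2.06 and ILMN_2737302 at -1.09, against -2.60, -2.67 and -1.85 as reported. The cause of these shifts was not tested.

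Calls were less stable. The number of Cxcl12 and Cxcl14 probes called lower was 2, and was 0 without background correction, 1 with an offset of 50, 1 with median scaling, 1 with no filter, 0 with the filter of a detection p under 0.05 on 3 arrays, 1 with array weights and 0 with the replicate block. The 1 call among the effectors of migration (Jak2) became 0 in each of these settings, and 1 probe of the CXC and CX3C ligands (Cx3cl1) was called lower with the deposited processed values. Over all tested probes, 54 lower and 53 higher became 17 and 19 without background correction, 26 and 27 with an offset of 50, 29 and 63 with median scaling, 68 and 102 in the deposited processed table, 36 and 30 with no filter and 7 and 9 with the filter at 0.05. With 1 array left out, all these counts were 0 to 0 in limma, with 675 to 1222 probes lower and 1033 to 1188 higher at an unadjusted p under 0.05. With the replicate block 0 were called lower and 0 higher (772 and 1042 at an unadjusted p under 0.05). Replicate numbers did not pair the arrays, since deviations of arrays with the same number had correlations of -0.0135, 0.00126 and -0.0261 across the tested probes, so the block only removes degrees of freedom. Of 56 comparisons with a count that was not 0 as reported, 7 stayed within 1.5 times. Brightness limits the receptors, with 1 probe each at background, and the sizes for Cxcl14 and the dimmer Cxcl12 probes.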
